A study of Mus musculus with 4 samples.

Results

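The genes described here encode proteins of the nucleolus that make ribosomes, together with Myc, a transcription factor that acts on many of them. They were taken as a list of 39 gene symbols, and 38 of them had a probe set of their own among the 18193 genes read by such a probe set. Npm3 was not analysed here. Where a gene had several probe sets, the brightest of them over the 4 arrays stands for it, and the values are log2 levels. The RNA came from CD11b+ splenocytes of mice, cells isolated from spleen by the integrin chain that Itgam encodes and that neutrophils, monocytes, macrophages and some dendritic and lymphoid cells carry. Mice under repeated social threat (labelled HighThreat) gave 2 pools and control mice (labelled LowThreat) gave 2, with the RNA of 5 mice in each pool and each pool on its own Affymetrix MOE430 2.0 array. The sources used here give no strain, age or sex of the mice, no length of exposure and no batch.

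Ribosome biogenesis starts when RNA polymerase I copies the ribosomal DNA into a long precursor RNA. Small nucleolar RNPs (snoRNPs) then guide its methylation and pseudouridylation, processing complexes cut it, and assembly factors fold it with ribosomal proteins into the small and the large subunit, which leave the nucleus for the cytoplasm. The pathway is a large expense of growing cells, and MYC is known to raise the expression of many of its genes. In blood formation it is prominent in early, dividing precursors and declines as granulocytes mature.

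Itgam was measured at 10.47 and 11.01 in the control pools and at 11.64 and 11.59 in the social threat pools. It rose by 0.88 (SE 0.13, limma adjusted p = 0.0015). Markers of several cell types, some of which carry CD11b, were present in the pools and differed between the groups. Of 11 neutrophil precursor markers 11 rose, and their mean log2 level lay at 9.36 to 9.45 in control pools and 11.86 to 11.90 in social threat pools. Of 14 proliferation markers 12 rose (7.16 to 7.28 against 8.91 to 8.99), and of 10 erythroid markers 7 rose (5.63 to 5.67 against at least 6.97). In the other direction, 8 of 9 B cell markers fell (8.19 to 8.23 against 7.29 to 7.32), as did 8 of 9 T cell markers (6.67 to 6.68 against 5.64 to 5.68), 6 of 8 NK cell markers (7.96 to 8.02 against 7.28 to 7.33), 8 of 8 dendritic cell markers (8.52 to 8.53 against 7.33 to 7.38) and 9 of 10 macrophage and monocyte markers (10.90 to 10.91 against 10.50 to 10.52). Of 9 stem and progenitor cell markers 3 rose and 4 fell, and of 7 mature neutrophil markers 5 rose and 2 fell. By the same test 9.4% of all genes rose and 11.7% fell. Among genes with a mean level of at least 6 these shares were 17.1% and 22.1%. Flt3 was counted both as a stem and progenitor cell marker and as a dendritic cell marker. In pooled bulk RNA, fewer cells of a type and less RNA per cell cannot be told apart. The part of these cell types in the results below was not tested.

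Ribosome biogenesis genes lay lower after social threat. Of the 38 measured, 26 fell, 0 rose and 12 did not pass the test, which was limma with a Benjamini-Hochberg adjusted p under 0.05 over all 45037 probe sets. By limma at an unadjusted p under 0.05, 31 were lower and 0 higher, where 18.5% of all genes were lower and 13.9% higher, and 31.7% and 23.6% of those with a mean level of at least 6. At the adjusted threshold 11.7% of all genes were called lower and 9.4% higher, and among genes with a mean level of at least 6, where 37 of the 38 stood, 22.1% were called lower and 17.1% higher. The median log2 fold change of the 38 genes was -0.43, against -0.02 over all genes and -0.04 over those with a mean of at least 6. The median gene of the list stood at the 6.73 percentile of all fold changes, and 21 of the 38 lay below the 10th percentile.

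The size of the falls was modest and close to alike in the pools of a group. The genes that fell did so by 1.13-fold to 1.86-fold, with a median of 1.40-fold, and only 5 of them by at least 1.5-fold. A fall of that size without overlap of the pools was seen in 3.63% of all genes. Across the 38 genes the median gap between the control pools was 0.079 and that between the social threat pools 0.054 on the log2 scale, against a median difference of 0.431 between the group means. In 32 of the 38 both social threat pools lay below both control pools, which was so for 32.1% of all genes and for 43.7% of those with a mean of at least 6. For Ebna1bp2 alone did both lie above. With 2 pools against 2, an exact two-sided permutation test of a single gene cannot go below p = 0.333, so the calls rest on limma's use of the spread of all probe sets.

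**Figure D1:**
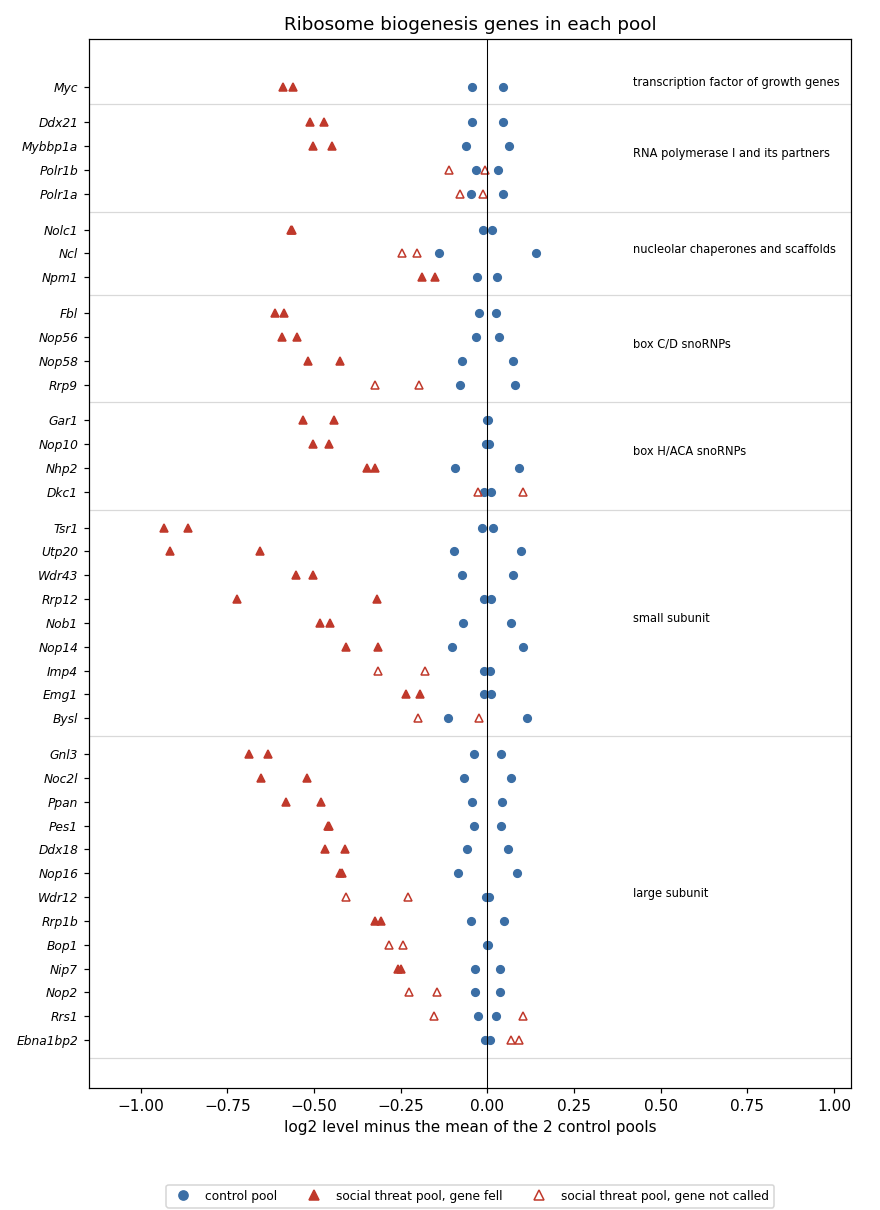
Log2 level of each of the 38 genes in every pool, minus the mean of its 2 control pools, grouped by role (horizontal axis, log2 units; circles are control pools, triangles social threat pools, filled where the gene fell and open where it was not called). For 32 genes both triangles lie left of both circles, and Tsr1 shows the largest difference at -0.90.

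Myc itself fell. Its only probe set read 8.02 and 7.93 in the control pools and 7.38 and 7.41 in the social threat pools. The groups did not overlap, and the log2 fold change was -0.58 (SE 0.08, limma adjusted p = 0.0011), a 1.49-fold difference. MYC acts as a heterodimer with MAX on the DNA word CACGTG, the E-box, where MAX also pairs with the repressors of the MXD family and MNT.

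The E-box was looked for in the RefSeq promoters of the genes on build GRCm38.p6, windows from 250 bases before to 50 bases after the gene start. The word reads the same on both strands, and no other motif was searched. Of the 39 listed genes 33 matched the promoter table by symbol, and 7 of them (21.2%) held CACGTG. The same word was found in 18.3% of 104 other ribosome biogenesis genes, in 12.8% of genes with a mean level of at least 6, and in 8.09% of all 27025 genes of the table. It stood in the promoters of 5 of 22 genes that fell and of 2 of 10 that were not called, so that its presence did not separate them. The lines below give the 30 bases around each match, 5′ to 3′ on the gene's strand with the E-box in capitals, to show where the word lies. Counted from the gene start, the first base of the word is at 3 in Pes1, 18 in Wdr43, 25 in Tsr1, 38 in Utp20 and 41 in Mybbp1a, and at -60 in Nop2 and -121 in Imp4.
Pes1 (fell, chr11:3963965-3963994, plus strand): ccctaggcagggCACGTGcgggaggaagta
Wdr43 (fell, chr17:71616220-71616249, plus strand): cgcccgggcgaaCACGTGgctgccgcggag
Tsr1 (fell, chr11:74898092-74898121, plus strand): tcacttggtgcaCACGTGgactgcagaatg
Utp20 (fell, chr10:88826765-88826794, minus strand): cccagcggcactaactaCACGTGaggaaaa
Mybbp1a (fell, chr11:72441347-72441376, plus strand): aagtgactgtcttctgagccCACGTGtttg
Nop2 (not called, chr6:125131811-125131840, plus strand): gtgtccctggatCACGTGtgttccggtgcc
Imp4 (not called, chr1:34439696-34439725, plus strand): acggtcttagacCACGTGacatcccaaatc
A match is a word in the sequence and does not show binding.

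The genes of MYC's partners and antagonists went both ways. Of 10 measured, 5 rose and 2 fell, where 9.4% of all genes were called higher and 11.7% lower. Among genes with a mean of at least 6, where 9 of the 10 stood, these shares were 17.1% and 22.1%. The number that fell thus lay near the share of the brighter genes. Max read 8.62 and 8.38 in control pools and 9.29 and 9.04 in social threat pools, a rise of 0.67 (SE 0.10). Among the antagonists that share MAX, Mxd3 rose by 0.49 (SE 0.10), Mxd1 by 0.33 (SE 0.05) and Mxi1 by 0.32 (SE 0.05), while Mnt fell by 0.47 (SE 0.06). Mlx, which pairs with MNT, MXD1 and the glucose-responsive factors, rose by 0.31 (SE 0.08). Mycl, the MYC relative used by dendritic cells, fell by 1.02 (SE 0.17), and its control pools stood apart at 6.91 and 6.33 with social threat pools at 5.64 and 5.56. Mxd4, Mga and Mycn were not called, at -0.19, -0.16 and 0.29. Without social threat pool 2 the number that rose was 2, and without the variance trend it was also 2.

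**Figure D2:**
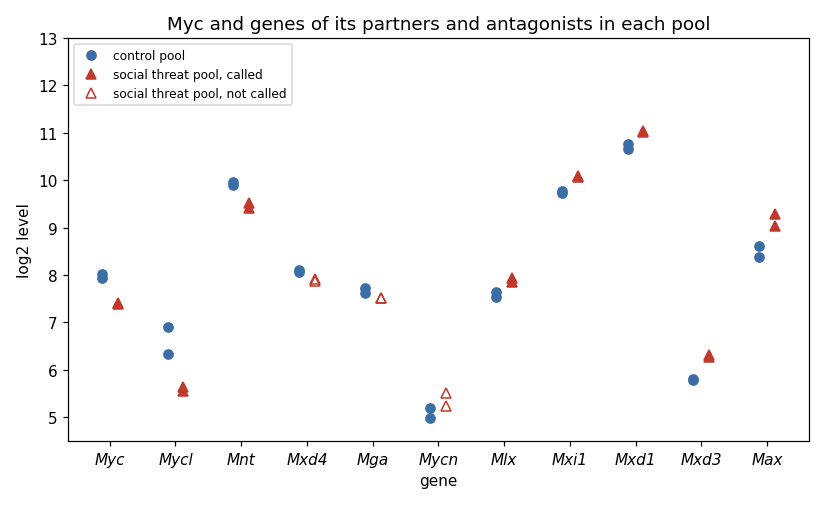
Log2 level (vertical axis) of Myc and of 10 genes of its partners and antagonists in each pool, ordered by fold change after Myc. Circles are control pools and triangles social threat pools, filled where the gene was called; Myc, Mycl and Mnt lie lower and Mlx, Mxi1, Mxd1, Mxd3 and Max higher, and levels of different genes come from different probe sets and are not comparable.

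Among RNA polymerase I and the proteins that work with it, 2 of 4 genes fell. Polr1a, the catalytic subunit of the polymerase, read 7.20 and 7.29 in control pools and 7.23 and 7.16 in social threat pools. Its groups overlapped, and the difference of -0.05 had a 95% interval from -0.25 to 0.16, with 0 of its 5 probe sets called. Polr1b, the second largest subunit, was not called at -0.06 (95% interval -0.33 to 0.21), and its control mean of 4.88 lay near the array medians of 4.41 to 4.43, where background can set the level. Ddx21, an RNA helicase that senses polymerase I activity and acts in precursor processing, fell by 0.49 (SE 0.08), from 8.12 and 8.21 to 7.70 and 7.65. Mybbp1a, a nucleolar protein that binds MYB and acts in ribosomal RNA synthesis and processing, fell by 0.48 (SE 0.07), from 9.18 and 9.06 to 8.61 and 8.67. In both genes the pools of the groups stood clearly apart, and their other probe sets fell as well.

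The abundant nucleolar scaffolds differed little. Ncl, nucleolin, which binds the precursor RNA, read 11.23 and 11.51 in control pools and 11.16 and 11.12 in social threat pools. The groups did not overlap, but the control pools differed from each other by more than the groups did, and the gene was not called (-0.23, 95% interval -0.40 to -0.06, limma adjusted p = 0.0781). The value rests on which control pool is used, as it was -0.37 without control pool 1, where the gene was called lower (limma adjusted p = 0.000258), and -0.09 without control pool 2, where it was not. Of its 5 probe sets 1 fell, by 0.49, and the others were not called. Npm1, nucleophosmin, a histone and ribosome chaperone, read 11.02 and 11.08 against 10.86 and 10.90 and fell by 0.17 (SE 0.04, limma adjusted p = 0.0191), the smallest fall of the list at 1.13-fold. Its second probe set fell by 0.29. Nolc1, a chaperone of snoRNPs that moves between nucleolus and Cajal bodies, fell more. It read 8.09 and 8.06 in control pools and 7.51 and 7.51 in social threat pools, a log2 fold change of -0.57 (SE 0.08, limma adjusted p = 0.000885), and all 3 of its probe sets fell.

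The box C/D snoRNPs, which carry out 2′-O-methylation of ribosomal RNA, fell in 3 of 4 genes. Fbl, fibrillarin, the methyltransferase itself, read 10.47 and 10.42 in control pools and 9.86 and 9.83 in social threat pools. Both groups were tight and far apart, giving -0.60 (SE 0.05, limma adjusted p = 3.02e-05), and its second probe set, at -0.58, fell alike. The core proteins Nop56 and Nop58 fell by 0.57 (SE 0.08) and 0.47 (SE 0.10). Nop58 read 7.16 and 7.30 against 6.81 and 6.71. Rrp9, a protein of the U3 snoRNP that is needed to cut the precursor of the small subunit RNA, was not called (-0.26, 95% interval -0.49 to -0.04), though its pools did not overlap.

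The box H/ACA snoRNPs, which turn uridines of ribosomal RNA into pseudouridines and whose proteins are also part of telomerase, showed 3 falls among their 4 core proteins. Gar1 read 7.96 and 7.97 in control pools and 7.43 and 7.52 in social threat pools, a fall of 0.49 (SE 0.08). Its only probe set is one that Affymetrix marks as shared by several transcripts. Nop10 fell by 0.48 (SE 0.04, limma adjusted p = 4.57e-05), and Nhp2 by 0.34 (SE 0.07), from 9.99 and 9.81 to 9.56 and 9.58. The enzyme of the complex, dyskerin (Dkc1), did not follow. It read 7.42 and 7.44 against 7.53 and 7.40, with overlapping groups, and differed by 0.04 (95% interval -0.16 to 0.24), with 0 of 3 probe sets called.

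Of 9 genes for the small subunit, 7 fell. Tsr1, a GTPase-like factor of late small subunit precursors, showed the largest fall of the list. It read 8.36 and 8.39 in control pools and 7.51 and 7.44 in social threat pools, a log2 fold change of -0.90 (SE 0.08, limma adjusted p = 4.87e-05) or 1.86-fold. Its second probe set fell by 0.84. Affymetrix marks both probe sets of Tsr1 as shared by several transcripts, so no probe set without that mark backs this fall. Utp20, a large scaffold of the processome that forms on the precursor, fell by 0.79 (SE 0.13), from 6.51 and 6.32 to 5.76 and 5.50. Its social threat mean of 5.63 lay not far above the array medians, where background can limit a fall.

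Other genes of the small subunit fell by less. Wdr43, a processome protein, fell by 0.53 (SE 0.08), Nob1, the nuclease that makes the final cut at the end of the 18S RNA, by 0.47 (SE 0.09) and Nop14, a processome protein, by 0.36 (SE 0.10). Rrp12, which aids export of precursors, fell by 0.52 (SE 0.13), but its social threat pools stood apart at 6.52 and 6.12. Emg1, a methyltransferase of the small subunit RNA, had the smallest fall of this group, 0.22 (SE 0.05), from 10.17 and 10.15 to 9.97 and 9.92. Imp4, a U3-associated protein, was not called at -0.25 (95% interval -0.42 to -0.08). Bysl, bystin, was not called either, at -0.11 (95% interval -0.36 to 0.13) with overlapping pools.

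Of 13 genes for the large subunit, 8 fell. Gnl3, nucleostemin, a GTP-binding protein of proliferating and stem cells, read 8.86 and 8.78 in control pools and 8.19 and 8.13 in social threat pools. Its groups were far apart, and it fell by 0.66 (SE 0.07, limma adjusted p = 0.000194). Noc2l, which accompanies early precursors, fell by 0.59 (SE 0.10), Ppan, a factor of 28S maturation, by 0.53 (SE 0.09), the helicase gene Ddx18 by 0.44 (SE 0.09) and Nop16 by 0.42 (SE 0.09). Rrp1b fell by 0.31 (SE 0.08) on the chosen probe set, while its other 2, at -0.15 and -0.13, were not called. Nip7 had the smallest fall of these genes, 0.25 (SE 0.07), from 8.79 and 8.72 to 8.50 and 8.50.

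The proteins of the PeBoW complex, which PES1, BOP1 and WDR12 form on precursors of the large subunit, were all lower in both social threat pools, but only Pes1 passed the test. Pes1 fell by 0.46 (SE 0.06), from 9.08 and 9.16 to 8.66 and 8.66. Bop1 was not called at -0.26 (95% interval -0.44 to -0.08, limma adjusted p = 0.0544), nor was Wdr12 at -0.32 (95% interval -0.57 to -0.07). Nop2, a methyltransferase of the large subunit RNA, was not called at -0.19 (95% interval -0.40 to 0.03). Rrs1, which helps to bring the 5S RNP into the large subunit, stood at -0.03 (95% interval -0.24 to 0.19), and Ebna1bp2 at 0.08 (95% interval -0.09 to 0.25). Rrs1 was read by a probe set of the kind that Affymetrix marks as open to cross-hybridisation, and its other probe set, at -0.14, was not called.

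Different probe sets of a gene mostly gave the same direction, though many of those not chosen were not called. The 38 genes had 76 probe sets in all, of which 39 were called lower and 0 higher, where 8.67% and 7.09% of all probe sets were. Of the 38 probe sets that were not chosen, 32 had a negative fold change. Of 20 with a mean of at least 6, 11 were called lower, and of 18 dimmer than that, 2 were. Of the 25 genes with several probe sets, 10 fell on every probe set, among them Fbl, Nop56, Nolc1, Nop10 and Tsr1. Some genes that fell had another probe set that was not called, such as Wdr43 at -0.28, Pes1 at -0.15 and Nop16 at -0.035. As the mean of all probe sets, Pes1 and Nop16 were not called. The genes that fell lie on 16 different chromosomes. Of the 26, 5 were read by a probe set that Affymetrix marks as shared by several transcripts, and 6 by one for alternative transcripts of the same gene.

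Other genes of the pathway also lay lower, with a median nearer 0. Of 124 measured, 46 fell, 2 rose and 76 were not called, with a median of -0.23. Of all genes 11.7% were called lower and 9.4% higher, and of those with a mean of at least 6 22.1% and 17.1%. Among 13 genes of RNA polymerase I and its factors 6 fell, namely Polr1c, Polr1d, Polr1f, Polr1h, Taf1d and Tcof1, the gene of the nucleolar protein treacle. Of 22 further genes of the small subunit processome 7 fell, and of 11 helicase genes 6 fell, while limma called 0 of 10 RNA exosome genes (median -0.11), with 4 at an unadjusted p under 0.05. These divisions of the list were drawn up after its values were seen, and none was tested against the shares of all genes.

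The largest falls among these further genes were those of Wdr75, a processome protein, by 0.65 (SE 0.11), Rcl1, by 0.61 (SE 0.11), Znhit6, an assembly factor of box C/D snoRNPs, by 0.60 (SE 0.12), and Surf6, by 0.58 (SE 0.10). Wdr75 read 7.76 and 7.59 in control pools and 7.14 and 6.91 in social threat pools, without overlap. The 2 genes that rose act late or beside the pathway. Xpo1, exportin 1, which carries both ribosomal subunits and many proteins out of the nucleus, rose by 0.41 (SE 0.05), from 9.72 and 9.74 to 10.13 and 10.14, and C1d, an exosome cofactor, rose by 0.36 (SE 0.06). With either social threat pool left out, 8 of the 124 were called lower, a share near the 5.61% and 5.02% of all genes called lower in those settings.

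**Figure D3:**
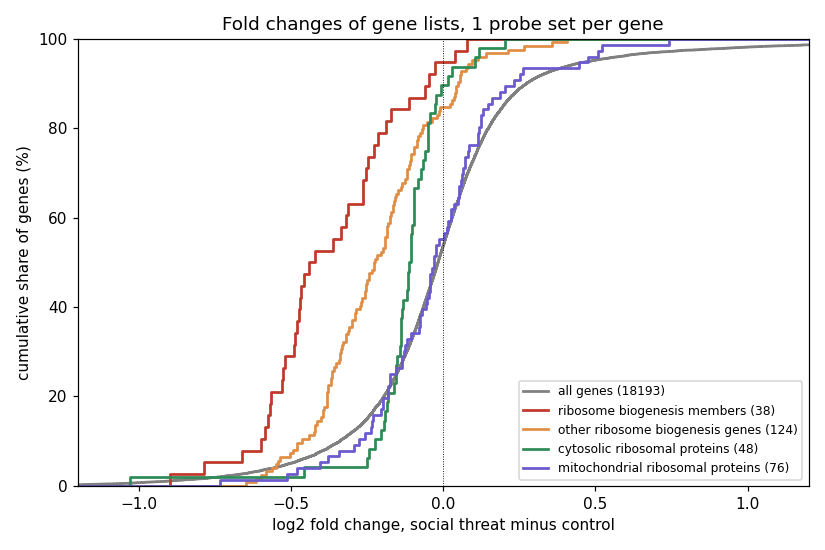
Cumulative share of genes (vertical axis, percent) by log2 fold change of social threat minus control (horizontal axis) for all 18193 genes and for 4 lists, 1 probe set per gene. The curve of the 38 ribosome biogenesis genes lies farthest to the left with a median of -0.43, followed by the 124 other genes of the pathway at -0.23 and the 48 cytosolic ribosomal proteins at -0.11.

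The ribosomal proteins that the pathway assembles were lower by small amounts. Of 48 cytosolic ribosomal protein genes with a probe set of their own, 28 fell and 0 rose in limma, but with a median of only -0.11. At an unadjusted p under 0.05 limma had 34 lower and 0 higher. Of all genes 11.7% were called lower, and 18.5% were lower at the unadjusted threshold. Among genes with a mean of at least 6 these shares were 22.1% and 31.7%. Rpl12 and Rps25 fell by 1.03 (SE 0.13) and 0.46 (SE 0.07), and Rpl37 and Rpl27 by 0.24 (SE 0.06) and 0.23 (SE 0.03). The probe set of Rpl12 read 6.69 and 6.75 in control pools and 5.85 and 5.53 in social threat pools. That is far below the median levels of the list, 12.66 to 12.75 over the pools, so its fall may not speak for the main transcript. Rpl27 read 12.45 and 12.42 in control pools and 12.22 and 12.20 in social threat pools. Many of these genes have near-identical pseudogenes, so the values of single probe sets are uncertain. Without the variance trend 2 of 48 were called lower, where 1386 of all 18193 genes were. The list did not stand out from all genes in that setting.

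Mitochondrial ribosomal proteins and RNA polymerase III had medians near that of all genes. Of 76 mitochondrial ribosomal protein genes 6 rose and 5 fell, with a median of -0.03. Those shares lie below the 9.4% of all genes called higher and the 11.7% called lower, so the genes named next are single calls within the background. Mrpl44 rose by 0.74 (SE 0.08), Mrpl18 by 0.52 (SE 0.07), Mrpl51 by 0.51 (SE 0.08) and Mrpl19 by 0.48 (SE 0.10), while Mrps6 fell by 0.74 (SE 0.10), Mrpl38 by 0.51 (SE 0.10), Mrps18b by 0.48 (SE 0.08) and Mrpl23 by 0.41 (SE 0.07). Of 20 genes of RNA polymerase III and its factors, which make transfer RNAs and 5S RNA, limma called 0, with a median of -0.02, and at an unadjusted p under 0.05 it had 1 lower and 2 higher. No difference between lists was tested.

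**Figure D4:**
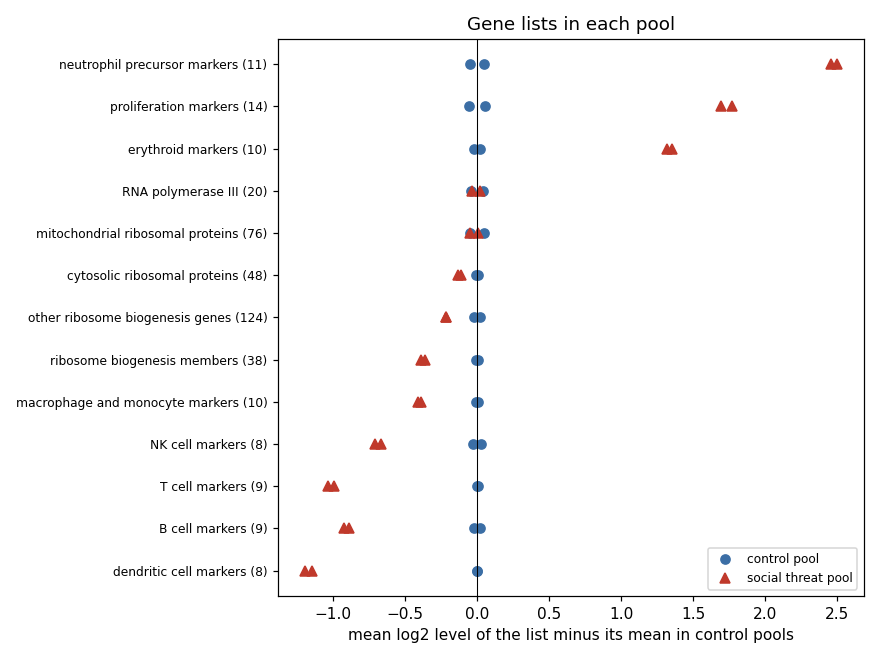
Mean log2 level of each gene list in each pool minus its mean over the 2 control pools (horizontal axis; number of measured genes in brackets; circles are control pools, triangles social threat pools). Before that subtraction the mean level of the ribosome biogenesis genes was 7.75 to 7.78 in social threat pools against 8.13 to 8.15 in control pools. In social threat pools these genes lie lower, proliferation and neutrophil precursor markers higher, and lymphoid and dendritic cell markers lower.

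The falls of ribosome biogenesis genes thus stood in the same pools as higher levels of dividing cell genes. Mki67, the Ki-67 antigen of dividing cells, read 8.51 and 8.25 in control pools and 10.63 and 10.63 in social threat pools, a rise of 2.25 (SE 0.08). Mpo, myeloperoxidase of neutrophil precursors, rose by 4.85 (SE 0.09), from 6.23 and 5.98 to 11.02 and 10.89. In the same arrays Gnl3, Npm1 and Fbl fell, while Ncl, Dkc1, Bysl, Rrs1 and Ebna1bp2 were not called. Npm1 had the smallest fall of the ribosome biogenesis genes and was not called without the variance trend. How these levels relate to cell division was not tested. Among stem and progenitor cell genes, Kit, the stem cell factor receptor, fell by 0.72 (SE 0.08), Flt3 by 1.12 (SE 0.10) and Sox4 by 0.91 (SE 0.11). Flt3 was also among the 8 dendritic cell markers, all of which fell. Myb rose by 1.04 (SE 0.07) and Gfi1, a repressor needed in granulocyte formation, by 0.95 (SE 0.10). Fewer genes of the list were called when a social threat pool was left out, namely 14 without pool 1 and 11 without pool 2, where 5.61% and 5.02% of all genes were called lower. The 9 genes that were called lower whichever pool was left out were Fbl, Gnl3, Mybbp1a, Myc, Nolc1, Nop10, Nop56, Pes1 and Tsr1.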

How the data were processed

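The authors deposited log2 levels of probe sets. Per the submitters' processing notes these come from RMA, with no version stated. RMA corrects background, brings arrays to a common distribution and summarises probes, so that small signals vary less than the RNA does, and it does not say which probe sets were detected. Values ran from 2.26 to 14.25. No further normalization was applied, and the number of arrays limits the precision. Of 45037 probe sets, 34945 had exactly 1 symbol in the platform annotation, 932 had several and 9160 were not listed.

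The groups were compared by limma 3.58.1 under R 4.3.3 (lmFit, eBayes with a mean-variance trend, 2 residual and 7.14 prior degrees of freedom), two-sided, with Benjamini-Hochberg adjustment over all probe sets and calls at an adjusted p under 0.05. "Fell" and "rose" are used of called genes only. A negative log2 fold change means a lower level under social threat, and the SE and 95% intervals are the moderated ones. The p-values set each difference against the spread between pools of 5 mice. By the degrees of freedom above, that spread draws more on all probe sets than on the probe set's own pools. No source used here says in which order the arrays were processed, and such a batch and the groups cannot be told apart. The code was tested on simulated data.

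The genes, the other lists and the tests were chosen with earlier results of these data known. Values in every pool are given by rule for the genes with the largest and smallest called change of each role and for Myc, Ncl, Npm1, Fbl and Polr1a. Of the other lists, up to 4 genes with the largest rise and fall were named, and genes beyond that rule were named after their values were seen. Alternatives were other scalings and variance priors, a filter on dim probe sets, other probe sets per gene, a pool number block and leaving out each pool. Deviations of like-numbered pools correlated at 0.05 over all probe sets, many of them dim, which cannot show whether the pool numbers pair the samples.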

Additional observations from a re-analysis of the deposited data

How the results depend on the processing

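The ribosome biogenesis list had 26 genes called lower. That count was 11 to 26 when each pool was left out, with the lowest count without social threat pool 2 and 14 without social threat pool 1, and 5 by the rule of at least 1.5-fold without overlap of the pools, which 3.63% of all genes met. It was 19 without the variance trend and at an adjusted p under 0.01, and 24 to 29 under the other settings, among them 24 without probe sets marked _s_at or _x_at, a setting chosen after seeing the data in which 36 genes had a probe set. The number called higher was 0 under every alternative run. The 8 genes called lower under every alternative fit that was run for them were Fbl, Gnl3, Mybbp1a, Myc, Nolc1, Nop10, Nop56 and Tsr1, and of these Fbl, Gnl3 and Tsr1 also met the 1.5-fold rule. The median log2 fold change was -0.34 as the mean of all probe sets of a gene, and -0.42 to -0.39 when a pool was left out. A replicate block by pool number gave 29 genes lower, adding Ncl, Imp4 and Bop1. The number of all 18193 genes called lower also changed, from 2122 to 2395 with that block and to 1386 without the variance trend. With the filter on dim probe sets 28 of 37 genes of the list were called lower, and 2151 of all 8196 genes kept.

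Of the 124 other pathway genes, 27 were called lower without the variance trend and 8 to 50 with a pool left out, and the number called higher was 1 without the trend, 1 as the mean of probe sets and 1 to 4 with a pool left out. For RNA polymerase III, 1 gene was called lower as the mean of probe sets, and 0 to 1 each way with a pool left out. Of the MYC partners, 1 was lower as the mean of probe sets, and 2 were higher without the trend and 2 to 5 with a pool left out. Of the cytosolic ribosomal proteins, 2 were lower without the trend and 7 to 32 with a pool left out. Of the mitochondrial ribosomal proteins, 10 were lower and 11 higher with the filter on dim probe sets, 9 were lower as the mean of probe sets, and 2 to 13 were lower and 4 to 11 higher with a pool left out. With the filter on dim probe sets 2151 of all 8196 genes kept were called lower and 1655 higher. Both shares are larger than those of the 75 mitochondrial ribosomal protein genes that the filter kept. Of all 18193 genes 1386 were lower and 1145 higher without the trend, and 2299 and 1791 as the mean of probe sets. The cause of the changes in the counts of these lists was not tested. A setting without a pool has fewer samples, and its lone pool is assumed to vary like the other group.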
